A study of Mus musculus with 6 samples.

Results

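Tnf, Tnfaip3 and the NF-kappaB genes were followed in peritoneal macrophages of mice with ovarian tumors. The set held 6 of the 754 genes measured. Tnf and Tnfaip3 were chosen on their difference between the groups described here, so their values are a description and carry no test. Nfkb1, Nfkbia, Nfkbie and Nfkbiz were taken because their symbols begin with Nfkb. Rel, Rela, Relb, Nfkb2, Nfkbib and Nfkbid were not analysed here, so Nfkb1 was the only subunit measured.

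The cells came from adult C57BL/6J mice given ID8 cells, a mouse ovarian cancer line, 7 weeks before treatment. Mice then received 2 intraperitoneal doses, on day 1 and day 5, of PBS (3 samples) or of nanoparticles carrying 30 µg of mouse IRF5 mRNA (IRF5-NPs, 3 samples). The methods of the study give another dose and time. They also name a mRNA for the kinase IKK-beta delivered together with IRF5, which the labels do not name. For the ovarian tumor model they describe ID8 cells made to express VEGF, and female mice of an albino variant of the strain. Exact age, genotype and the number of mice behind a sample were not given in the labels. Cells were washed from the peritoneum and sorted as F4/80+ CD11b+, and RNA was counted on a NanoString probe panel, which counts tagged probes without amplification. The PBS animals carry the same tumors and received no particle, so an effect of IRF5, of IKK-beta and of the particle itself cannot be told apart.

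NF-kappaB is a family of dimeric transcription factors that I-kappaB proteins hold in the cytoplasm. Signals from TNF, IL-1 or Toll-like receptors activate the IKK kinases, which mark I-kappaB for degradation and release the dimer to the nucleus. Many of its targets are cytokines and chemokines, and others are its own brakes: Nfkbia (I-kappaB-alpha) recaptures the dimer, and Tnfaip3 (A20) edits ubiquitin on the upstream adaptors. In macrophages these genes are typically switched on and off quickly, and IRF5 is known to act with NF-kappaB at inflammatory genes.

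RefSeq promoter windows (build GRCm38.p6) matched 4 of the 6 genes by symbol: Tnf, Tnfaip3, Nfkbia and Nfkbie. They are shown so that Tnf, Tnfaip3 and Nfkbia, which were lower in the IRF5-NP samples, can be read beside Nfkbie, which was not lower. Each line gives the 130 bases before the start site, 5′ to 3′ on the gene's strand, and capitals mark a match to the kappaB consensus, read on both strands. The windows lie at chr17:35202008-35202137 (minus strand, Tnf), chr10:19015411-19015540 (minus, Tnfaip3, the first of its start sites), chr12:55492648-55492777 (minus, Nfkbia) and chr17:45555570-45555699 (plus, Nfkbie).
Tnf: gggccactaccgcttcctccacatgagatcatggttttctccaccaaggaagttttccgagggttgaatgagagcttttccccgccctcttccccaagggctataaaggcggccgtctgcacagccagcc
Tnfaip3: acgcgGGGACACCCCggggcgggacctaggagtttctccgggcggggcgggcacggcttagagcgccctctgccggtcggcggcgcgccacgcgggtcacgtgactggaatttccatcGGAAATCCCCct
Nfkbia: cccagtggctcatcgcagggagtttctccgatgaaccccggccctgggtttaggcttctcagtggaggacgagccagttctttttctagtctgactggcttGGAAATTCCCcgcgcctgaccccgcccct
Nfkbie: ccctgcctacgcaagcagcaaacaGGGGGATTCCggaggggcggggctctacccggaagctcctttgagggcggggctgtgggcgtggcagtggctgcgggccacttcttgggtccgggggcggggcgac

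The search covered the 250 bases before each start, and 7.25% of 32851 promoter windows of this length held the consensus. Tnfaip3 held 2 matches, from 125 to 116 bases before the start, where the letters match on both strands, and from 12 to 3 bases before it. Nfkbia held 1 match, from 29 to 20 bases before the start, and Nfkbie held 1, from 106 to 97 bases before it. The Tnf window and the second Tnfaip3 start held none, which says only that these letters are not in those windows. A match is a description and not a measured binding site.

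Total counts over the panel were 1830318, 1603281 and 1302733 in PBS replicates 1, 2 and 3 and 1293665, 1598272 and 683472 in IRF5-NP replicates 1, 2 and 3. No difference beyond counting noise was shown between PBS replicates 2 and 3 (chi-square of 1.07 per degree of freedom), and they were counted as 1 sample, so the comparison is 2 against 3. Means and SDs below follow that count, and a p-value measures only the spread between these samples. PBS replicate 1 stood apart from the other PBS samples in several of the genes below. Values without it are given where they lose a call or move the fold by over 1.5 times. IRF5-NP replicate 3 had the fewest counts and, after normalization, the highest background (the negative control probes' mean plus 2 SD): 79.4 normalized counts, against 25.6 to 37.8 in the other samples.

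All 9 macrophage markers measured, among them Adgre1 (F4/80) and Itgam (CD11b), were above background in every sample. The same held for the 6 monocyte and the 5 resident macrophage markers. Per sample, 488 to 592 of the 754 genes were above background, so this does not single out the macrophage label. The 9 macrophage markers summed to 79288, 68975 and 67786 normalized counts in the PBS samples and to 52268, 107336 and 101569 in the IRF5-NP samples. IRF5-NP replicate 1 thus lay apart from the other IRF5-NP samples. Of the 9, 6 had a log2 fold change below 0, against 51.7% of the panel, and 1, Mertk, passed as lower (-1.23), against 7.03% of the panel. That call was lost without PBS replicate 1 (-0.89) and without each IRF5-NP replicate (-1.20 to -1.25). Irf5, the delivered gene, was at 2573, 1991 and 1929 normalized counts in the PBS samples and at 1960, 2358 and 2294 in the IRF5-NP samples. The groups overlapped. The delivered mRNA was codon-optimized, and whether the probe reads it was not tested, so Irf5 does not check the labels.

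Tnf, the cytokine that both triggers and is made under NF-kappaB, was at 330, 268 and 253 normalized counts in PBS replicates 1 to 3. In the IRF5-NP samples it was at 104, 52.9 and 65.0. Every IRF5-NP sample lay below every PBS sample, and the PBS samples lay close together. The means were 295 ± 49.1 (SD, n = 2) and 73.9 ± 26.6 (SD, n = 3), a log2 fold change of -2.03, or 4.09-fold lower on the log2(value + 1) scale. The value of IRF5-NP replicate 3, which rests on 25 counts (exact Poisson 95% interval 42.0 to 95.9 normalized counts), was not above its background, while the other 2 IRF5-NP samples were. Without that sample the log2 fold change was -1.97, after background subtraction it was -4.41, and under positive control scaling it was -2.88. In bulk samples of sorted cells, fewer cells of a type and less RNA per cell cannot be told apart.

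Tnfaip3, the feedback inhibitor A20, was at 2242, 713 and 642 normalized counts in PBS replicates 1 to 3. In the IRF5-NP samples it was at 221, 237 and 252. The groups did not overlap, and the IRF5-NP samples lay within a narrow range while PBS replicate 1 was 3.31-fold above the mean of the other 2. The means were 1459 ± 1107 (SD, n = 2) and 237 ± 15.6 (SD, n = 3), a log2 fold change of -2.38, or 5.19-fold lower. Without PBS replicate 1 the log2 fold change was -1.51.

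**Figure D1:**
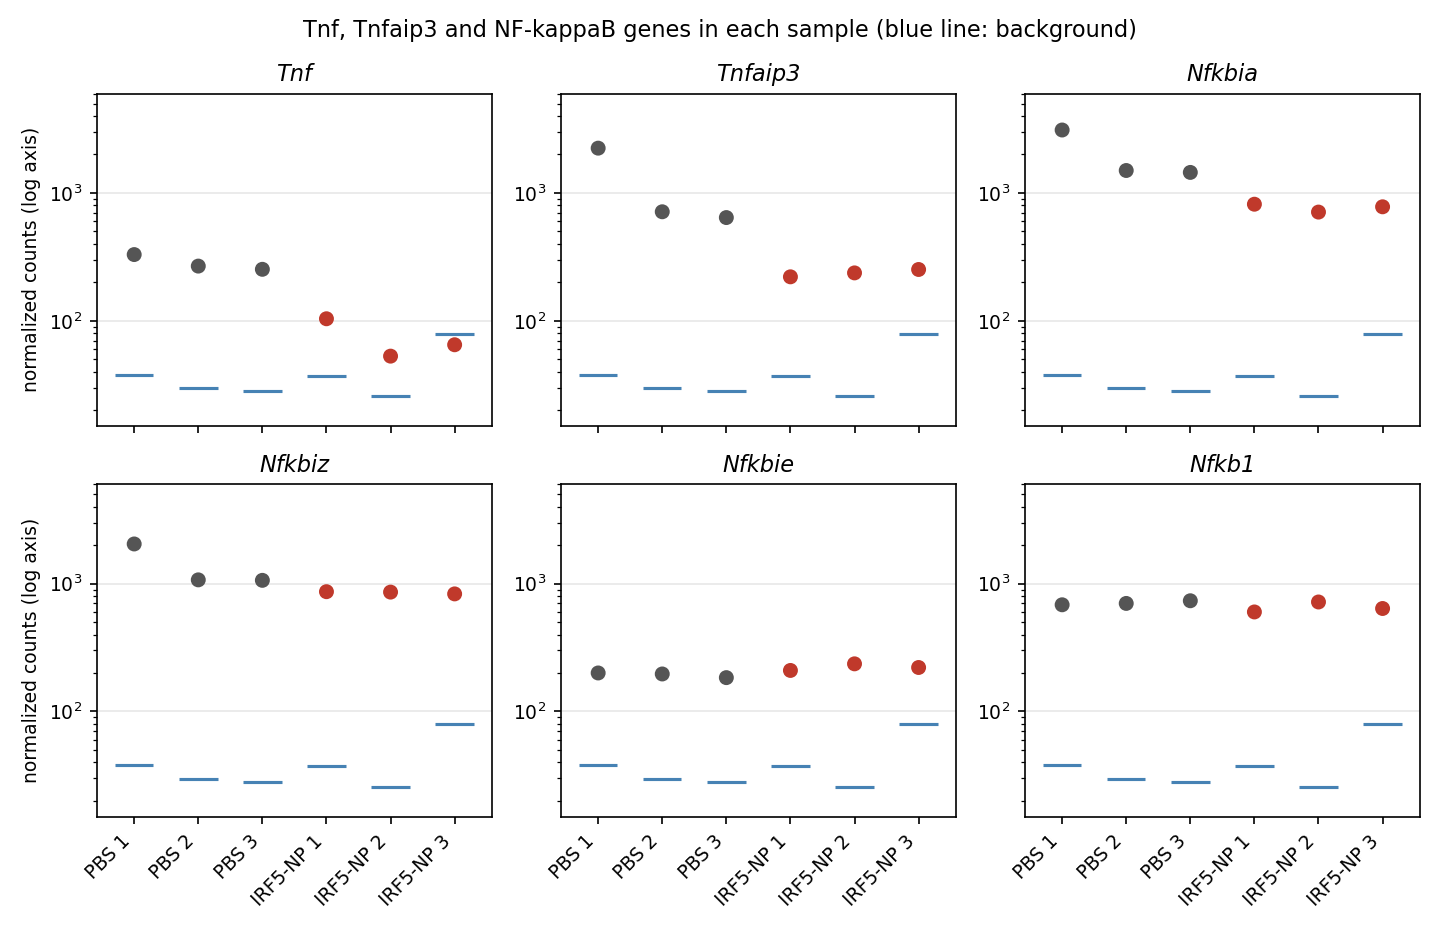
Normalized counts (log axis) of the 6 genes in each sample, PBS in grey and IRF5-NP in red, with each sample's background as a blue line. Tnf, Tnfaip3, Nfkbia and Nfkbiz are lower in all IRF5-NP samples than in any PBS sample, Nfkbie is slightly higher, Nfkb1 overlaps, and Tnf in IRF5-NP replicate 3 (65.0) lies under its background (79.4).

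Nfkb1 encodes p105, the precursor of the p50 subunit. It was at 683, 700 and 735 normalized counts in the PBS samples and at 601, 719 and 639 in the IRF5-NP samples. The groups overlapped, with means of 700 ± 24.0 (SD, n = 2) and 653 ± 60.2 (SD, n = 3). The log2 fold change was -0.10 (95% interval -0.56 to 0.35, limma adjusted p = 0.808 over all 754 genes). Its sign turned with a common median (0.13), quantile normalization (0.09) and scaling to the total (0.07). Positive control scaling put it at -0.97, below that interval, and the median of all genes at -0.88, so the interval holds for the deposited scaling only. A fall as large as that of Nfkbia (log2 fold change -1.48, described next) lies outside this interval. Tnf and Tnfaip3 were chosen on this contrast, so their folds are not set against the interval.

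Nfkbia, the inhibitor I-kappaB-alpha, fell from 3109, 1499 and 1448 normalized counts in the PBS samples to 817, 709 and 780 in the IRF5-NP samples. The groups did not overlap, and PBS replicate 1 was 2.11-fold above the mean of the other 2 PBS samples. The means were 2291 ± 1156 (SD, n = 2) and 768 ± 54.8 (SD, n = 3), which is -1.48 on the log2 scale (95% interval -2.21 to -0.75, limma adjusted p = 0.029). The direction held when each sample was left out, but the call was lost without PBS replicate 1 (log2 fold change -0.94, limma adjusted p = 0.074) and without IRF5-NP replicate 1 (limma adjusted p = 0.067), 2 (0.060) or 3 (0.133). It held under 8 of 19 alternative settings, among them those without PBS replicate 2 or 3, which change the comparison little.

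Nfkbiz, which encodes the nuclear co-activator I-kappaB-zeta, was at 2044, 1071 and 1062 normalized counts in the PBS samples and at 865, 859 and 832 in the IRF5-NP samples. All IRF5-NP samples lay below all PBS samples. The log2 fold change was -0.79 (95% interval -1.46 to -0.13) and did not pass after adjustment (limma adjusted p = 0.125, between 0.069 and 1 over the alternatives). Without PBS replicate 1 it was -0.32.

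Nfkbie, the inhibitor I-kappaB-epsilon, was at 200.1, 197 and 184 normalized counts in the PBS samples and at 209, 236 and 221 in the IRF5-NP samples. The IRF5-NP samples were all slightly above the PBS samples. The log2 fold change of 0.18 (95% interval -0.30 to 0.67, limma adjusted p = 0.665) did not pass and turned to -0.68 under positive control scaling. A fall as large as that of Nfkbia lies outside this interval.

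Of the 4 genes taken by symbol, 1 passed and was lower. Over the panel 7.03% of genes passed as lower and 2.52% as higher. All IRF5-NP samples lay below all PBS samples in 2 of these 4 genes and above them in 1, against 20.4% and 17% of the panel.

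The difference of each gene from Nfkb1 within a sample is nearly free of the scaling between samples. On the log2 scale, Nfkbia stood 2.18, 1.10 and 0.98 above Nfkb1 in the PBS samples and 0.44, -0.02 and 0.29 in the IRF5-NP samples. The mean difference between the groups was -1.37 for Nfkbia, -0.69 for Nfkbiz and 0.29 for Nfkbie. With 2 against 3 samples an exact two-sided permutation test cannot go below p = 0.1, so these differences are given without a call. For Tnf and Tnfaip3 the same differences were -1.93 and -2.27.

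**Figure D2:**
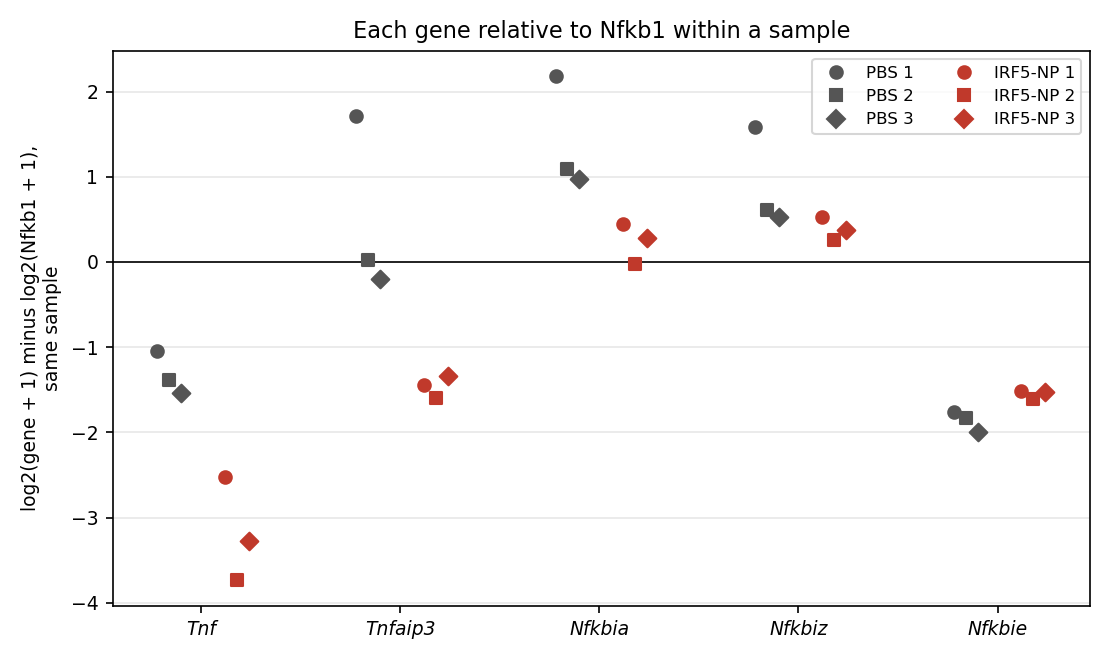
Log2(value + 1) of each gene minus that of Nfkb1 in the same sample, PBS in grey and IRF5-NP in red, 1 symbol per replicate number. The probes differ, so only the distance between samples of 1 gene can be read: Tnf and Tnfaip3 sit lower in the IRF5-NP samples, Nfkbia and Nfkbiz less so, and Nfkbie slightly higher.

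Among feedback inhibitors other than Tnfaip3, 3 were measured and 0 passed in limma, where 7.03% of the panel passed as lower and 2.52% as higher. Of the 3, 1 had an unadjusted limma p under 0.05, against 25.3% of the panel. Dusp1, a phosphatase that switches off MAP kinases, was at 30836, 8483 and 8230 normalized counts in the PBS samples and at 3261, 5821 and 6457 in the IRF5-NP samples (log2 fold change -1.69, limma adjusted p = 0.093). PBS replicate 1 was again far above the other PBS samples, and without it the log2 fold change was -0.75 (limma adjusted p = 0.459). Socs1, an inhibitor of cytokine receptor signaling, differed by -0.96 on the log2 scale (limma adjusted p = 0.244), or by -1.65 without PBS replicate 1, and was above background in 5 of the 6 samples. Peli1, a ubiquitin ligase of the Toll-like receptor pathway, differed by -0.19 on that scale (limma adjusted p = 0.651), which turned to 0.05 with a common median.

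Upstream of NF-kappaB, 9 kinases and adaptors were measured and 0 passed in limma, against the same 7.03% and 2.52% of the panel. Of the 9, 1 had an unadjusted limma p under 0.05, against 25.3% of the panel. They had a median log2 fold change of -0.36 against -0.03 over all genes. Traf6, the ubiquitin ligase that links IL-1 and Toll-like receptors to the IKK complex, was at 846, 404 and 428 normalized counts in the PBS samples and at 261, 300 and 320 in the IRF5-NP samples. Its log2 fold change was -1.02 (95% interval -1.75 to -0.29, limma adjusted p = 0.081). Without PBS replicate 1 it was -0.51, and with array weights Traf6 was the 1 upstream gene that passed (limma adjusted p = 0.048). In 5 of the 9 genes every IRF5-NP sample lay below every PBS sample, against 20.4% of the panel. Bcl10, a scaffold of the CARD signaling complex, had a log2 fold change of -0.54 and the adaptor Myd88 one of -0.47, with limma adjusted p values of 0.210 and 0.225. Bcl10 was at -0.26 without PBS replicate 1. The kinase Ripk2, which acts after NOD receptors, differed by 0.59 on the log2 scale (limma adjusted p = 0.273), with 0.24 left without PBS replicate 1 and a turn to -0.27 under positive control scaling. Ikbkb, which encodes IKK-beta, and Chuk were not analysed here.

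In the TNF family, 18 ligands and receptors other than Tnf were measured, of which 14 were above background in at least 1 sample. Of the 18, 1 passed as lower (5.56%, against 7.03% of the panel) and 0 as higher, so the share was near that of the panel. Tnfrsf11a (RANK), the receptor that drives osteoclast formation, fell from 757, 508 and 464 normalized counts in the PBS samples to 260, 271 and 283 in the IRF5-NP samples. Its log2 fold change was -1.16 (95% interval -1.73 to -0.59, limma adjusted p = 0.029). The groups did not overlap, but the call was lost without PBS replicate 1 (log2 fold change -0.84) and without each IRF5-NP replicate (-1.13 to -1.19). It was also lost with a common median (-0.92), total scaling (-0.99), positive control scaling (-2.02), background subtraction (-1.36), no variance trend and the methods' t-test. Tnfsf9 (4-1BB ligand) and Tnfrsf9 (4-1BB) had log2 fold changes of -0.71 and -0.77 and did not pass. Tnfsf9 was at -0.27 without PBS replicate 1, and Tnfrsf9 was above background in 2 samples. Lta and Cd40lg, with log2 fold changes of 0.90 and 0.68 that did not pass, were above background in 1 sample and in none, so these give no direction. The receptors of TNF itself, named after their values were seen, were at 2677 to 3129 (Tnfrsf1a) and 1360 to 1590 (Tnfrsf1b) normalized counts in the PBS samples and at 2785 to 2949 and 1412 to 1523 in the IRF5-NP samples. The groups overlapped in both receptors.

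**Figure D3:**
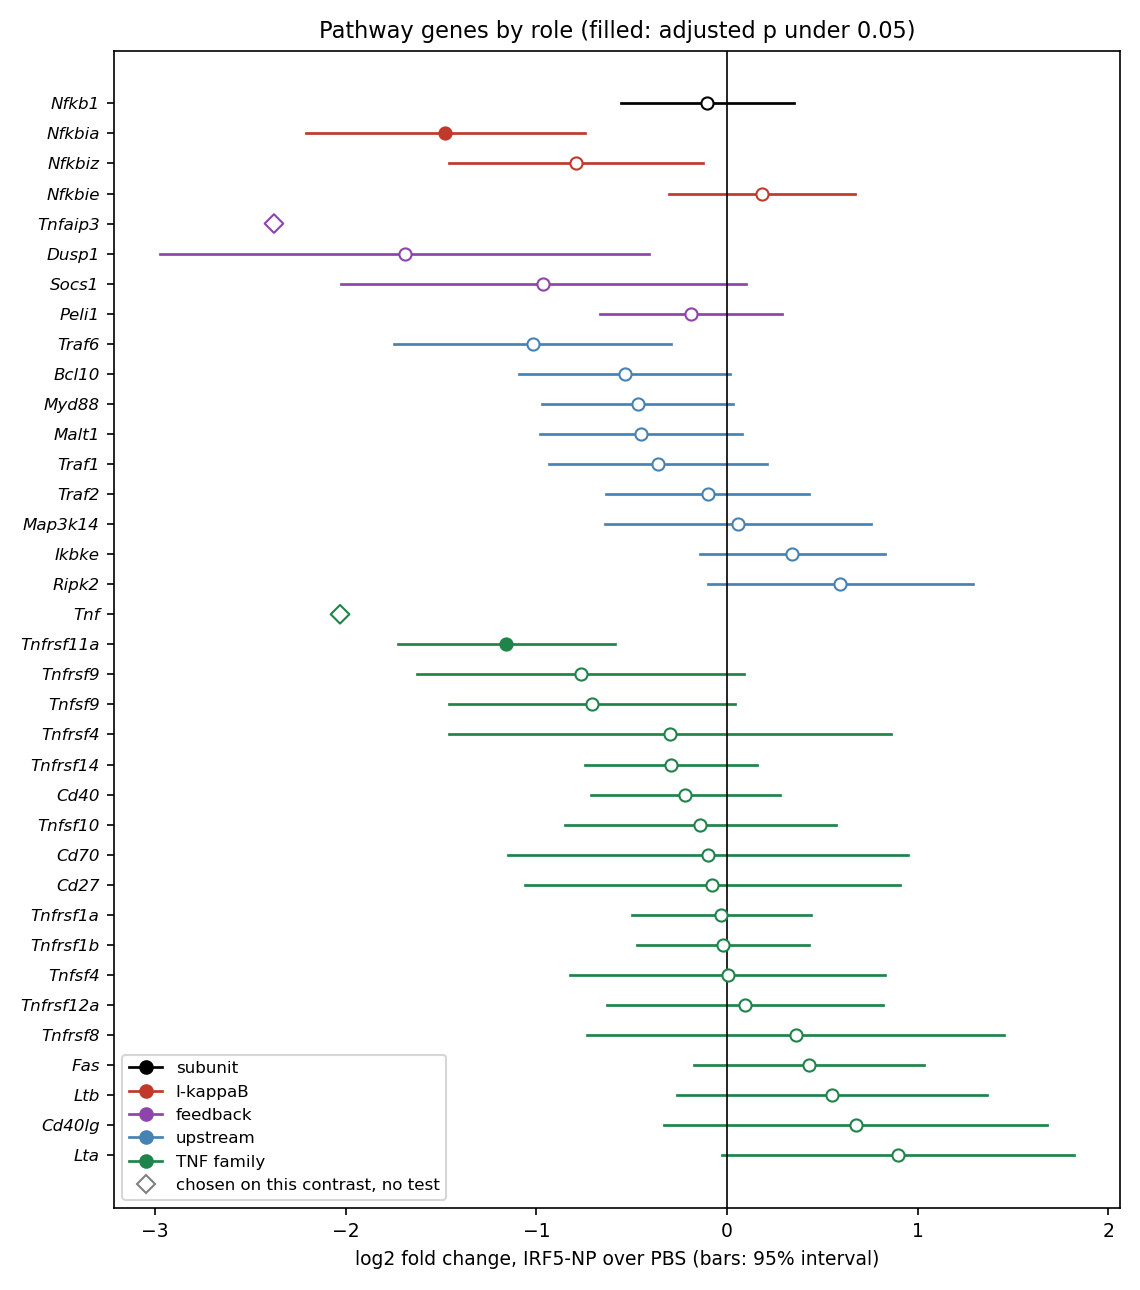
Log2 fold change, IRF5-NP over PBS, of the subunit, I-kappaB, feedback, upstream and TNF family genes, with 95% intervals as bars and filled points where the limma adjusted p was under 0.05. Nfkbia and Tnfrsf11a are the filled points, Nfkb1 lies near 0, and Tnf and Tnfaip3 (open diamonds, -2.03 and -2.38) have no interval because they were chosen on this contrast.

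The known targets of NF-kappaB were described from a list of 60 genes, of which 47 were measured beside Tnf and Tnfaip3. Of the 47, 10 passed as lower (21.3%, against 7.03% of the panel) and 1 as higher (2.13%, against 2.52%). Nfkbia, described above, is 1 of the 10, and Nfkb1 is also among the 47. Their median log2 fold change was -0.70, against -0.03 over all 754 genes, and 39 of 47 were below 0, against 390 of 754. Every IRF5-NP sample lay below every PBS sample in 24 of the 47 (51.1%, against 20.4% of the panel). The list was drawn up with earlier results of these data known, and these counts carry no test. Without PBS replicate 1 the count of lower targets was 8, with 32 genes of the whole panel lower, and without IRF5-NP replicate 3 it was 3, with 19.

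Chemokines led the lower targets. Ccl2, which attracts monocytes, fell from 11562, 7616 and 7569 normalized counts in the PBS samples to 1217, 646 and 696 in the IRF5-NP samples, a log2 fold change of -3.52 (95% interval -4.29 to -2.74, limma adjusted p = 0.00093). Ccl3 and Ccl4, inflammatory chemokines of macrophages, fell with log2 fold changes of -2.63 (limma adjusted p = 0.0059) and -2.86 (limma adjusted p = 0.0022). Cxcl9, which attracts activated T cells and is mainly induced by interferon-gamma, fell from 381, 877 and 910.0 normalized counts to 60.9, 76.1 and 85.8, or -2.97 on the log2 scale (limma adjusted p = 0.0029). Cxcl2, which attracts neutrophils, fell from 3906, 930.0 and 1011 to 379, 431 and 481, or -2.18 on the log2 scale (limma adjusted p = 0.036). In Ccl2, Ccl3, Ccl4, Cxcl9 and Cxcl2 the groups did not overlap.

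Ccl2, Ccl4 and Cxcl9 kept their calls when any 1 sample was left out, with Cxcl9 at a log2 fold change of -3.59 without PBS replicate 1. After background subtraction Ccl4 kept its call at -4.71, and Cxcl9 lost its call at -4.79. Ccl3 lost its call without IRF5-NP replicate 3 (log2 fold change -2.52), and Cxcl2 without IRF5-NP replicate 1 (-2.09) or 3 (-2.27). Cxcl2 kept its call at a log2 fold change of -1.18 without PBS replicate 1, and Ccl3 was then at -1.96. The call of Cxcl2 was also lost with a common median (-1.94), quantile normalization (-1.94), positive control scaling (-3.05), background subtraction (-2.32) and no variance trend. That of Ccl3 was also lost under positive control scaling (-3.49) and after background subtraction (-2.82). By the methods' t-test none of Ccl2, Ccl3, Ccl4, Cxcl9 and Cxcl2 passed. Within the PBS group the genes did not move together: Cxcl2, like Tnfaip3, was highest in PBS replicate 1, while Cxcl9 was lowest there.

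Cd83, a marker of activated antigen-presenting cells, fell by 1.48 on the log2 scale (limma adjusted p = 0.036). Its call was lost without PBS replicate 1 (-0.998) and without IRF5-NP replicate 1 (-1.27) or 3 (-1.52), and with a common median (-1.24), quantile normalization (-1.23), positive control scaling (-2.35), background subtraction (-1.61), no variance trend and the methods' t-test. Selp (P-selectin) was the target that rose, from 808, 2497 and 2471 normalized counts to 3751, 8914 and 8110, or 2.19 on the log2 scale (limma adjusted p = 0.042). That call was lost without PBS replicate 1 (1.38) and without each IRF5-NP replicate (1.96 to 2.58). Selp is also a marker of resident peritoneal macrophages.

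Of the lower targets, 3 fell outside the rule for naming and were named after their values were seen: Il1rn, the IL-1 receptor antagonist (log2 fold change -1.25), Plau, the urokinase plasminogen activator (-1.24), and Vegfa, the angiogenic factor (-0.82). Without IRF5-NP replicate 3 none of the 3 kept its call (-1.32, -1.25 and -0.86), and Vegfa lost it too when PBS replicate 1 (-0.73) or the first (-0.75) or the second (-0.85) IRF5-NP sample was left out. Il1rn lost it also without IRF5-NP replicate 1 (-1.10) or 2 (-1.32).

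Among the targets, the largest changes that did not pass were in Cxcl3 (log2 fold change -1.89, limma adjusted p = 0.084), a neutrophil chemokine, Il10 (-1.60, 0.065), an anti-inflammatory cytokine above background in 3 samples, Cxcl10 (-1.59, 0.093), an interferon-induced chemokine, and Gadd45b (-1.53, 0.063), a stress-response gene. Cxcl10 was at 163, 591 and 582 normalized counts in the PBS samples and at 142, 77.2 and 96.1 in the IRF5-NP samples, and it passed without PBS replicate 1 (-2.52, limma adjusted p = 0.017), with 6 separate samples and with array weights. Gadd45b passed without IRF5-NP replicate 1 (-1.96, limma adjusted p = 0.023), with 6 separate samples, with the replicate number as a block and with array weights. Cxcl3 and Il10 passed with array weights, and without PBS replicate 1 they were at -0.72 and -0.96.

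Other classical targets overlapped between the groups. Il1b and Ptgs2 (cyclooxygenase 2), named after their values were seen, were at 330 to 371 and 676 to 688 normalized counts in the PBS samples and at 311 to 450 and 592 to 678 in the IRF5-NP samples. Il6, also named after its values were seen, was at 32.2, 148 and 139 normalized counts in the PBS samples. In the IRF5-NP samples it was at 88.5, 259 and 242. The value in PBS replicate 1 was under that sample's background of 37.8. The values of Il6 overlapped, and replicate 1 lay apart as the lowest sample in both the PBS and the IRF5-NP group.

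**Figure D4:**
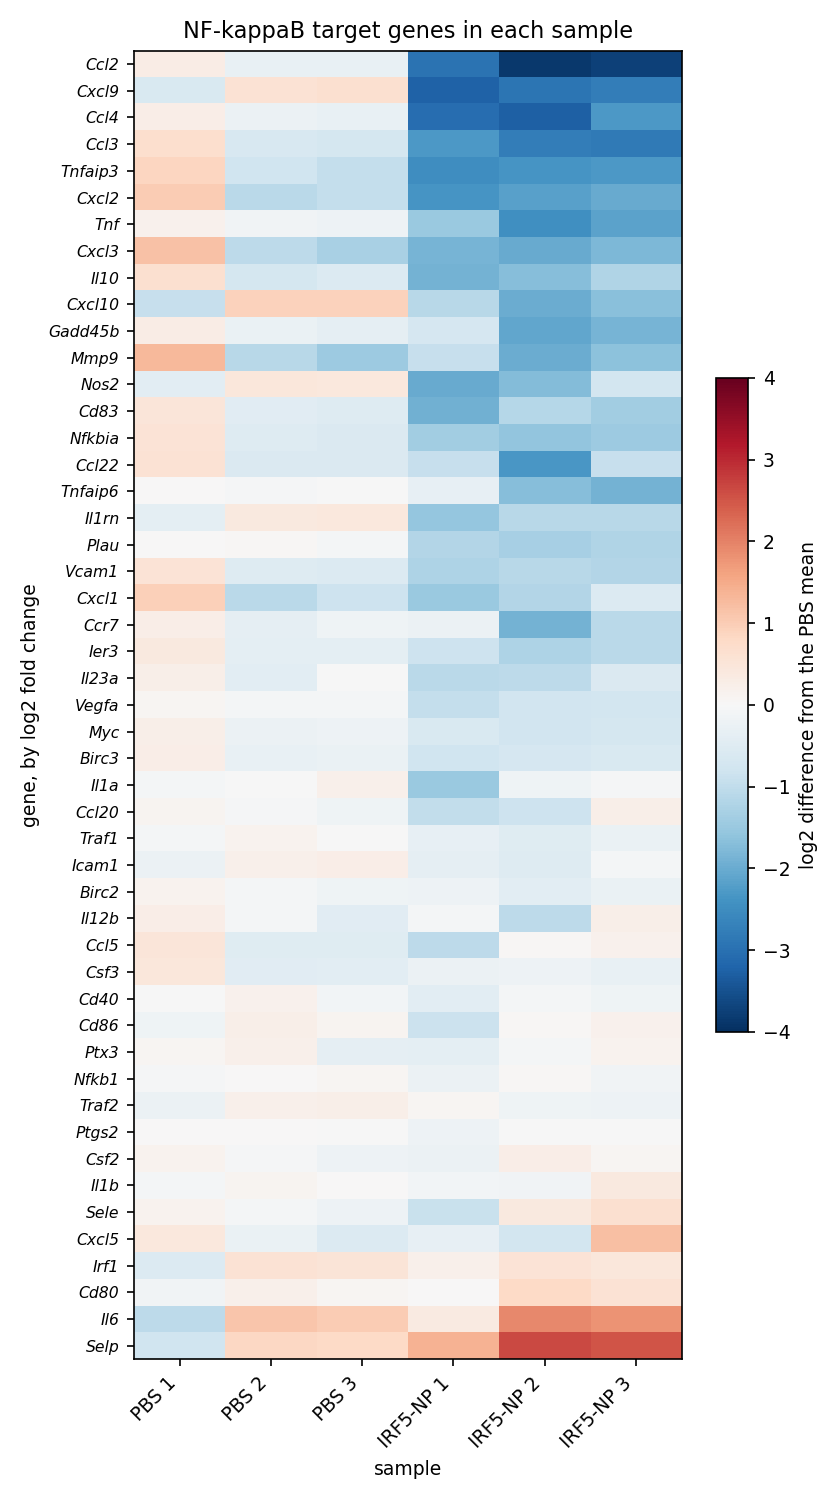
Log2 difference from the PBS mean (PBS replicates 2 and 3 counted as 1) for the 49 measured target genes, Tnf and Tnfaip3 included, in each sample, ordered by log2 fold change. Blue is lower and red higher: the upper rows, from Ccl2 down, are blue in all 3 IRF5-NP samples, while Nfkb1, Ptgs2 and Il1b stay near white and Selp is red.

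The genes whose profile over the 5 counted samples was most like that of Tnf, among 630 genes above background in at least 1 sample, were Cd69, Cxcr4, Gadd45b, H2-DMb1 and Gem. Their root mean square difference from the centred log2 profile of Tnf was 0.28, 0.28, 0.31, 0.36 and 0.37. For Tnfaip3 they were Ccl8 (0.13), Cxcl2 (0.14), Ccrl2 (0.17), Rgs1 (0.24) and Cd163 (0.24). The profile of Tnfaip3 was set in part by PBS replicate 1: Ccl8 was at 3474, 991 and 939 normalized counts in the PBS samples and at 264, 304 and 335 in the IRF5-NP samples, and Cd163, a scavenger receptor, at 2310, 425 and 423 and at 210.4, 206 and 210.5. The 2 lists shared no gene.

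Markers of cell states moved with these genes, and their part in the results was not tested. The 5 resident peritoneal macrophage markers measured (Alox15, Cxcl13, Gata6, Selp and Timd4) were higher in every IRF5-NP sample than in any PBS sample, against 17% of the panel, and 3 of the 5 (60.0%, against 2.52%) passed as higher. These were Selp, Timd4 (log2 fold change 2.48) and Cxcl13 (2.01), and the last 2 lost their calls without PBS replicate 1 (2.14 and 1.99) or IRF5-NP replicate 3 (2.23 and 1.81). The 5 markers summed to 8104, 18005 and 17695 normalized counts in the PBS samples. In the IRF5-NP samples they summed to 27364, 49614 and 49891, with Alox15 the highest probe on average over the samples. Their sum was lowest in PBS replicate 1, where Tnfaip3, Nfkbia and Nfkbiz were highest. The 6 monocyte markers summed to 37719, 63052 and 61304 in the PBS samples. In the IRF5-NP samples they summed to 57607, 77450.3 and 70824, with Fn1 the highest probe on average, though not in PBS replicate 1. The higher sum was that of Fn1, at 15752, 32947 and 31764 in the PBS samples and at 51654, 71276 and 64349 in the IRF5-NP samples. Of the 6, 4 had a log2 fold change below 0 (median -0.41), against 51.7% of the panel, and 1 passed as lower (16.7%, against 7.03% of the panel). This was Chil3, from 17089, 23631 and 23215 to 822, 469 and 390 (log2 fold change -5.23), also when any 1 sample was left out.

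The 9 neutrophil markers summed to 6815, 2277 and 2252 normalized counts in the PBS samples and to 2556, 1614 and 1910 in the IRF5-NP samples. The S100a8 probe, the highest on average, was at 3405 in PBS replicate 1 and 512 to 1189 in the other samples. In IRF5-NP replicates 2 and 3 it was lower than Csf3r. Csf3r passed as higher, from 445, 425 and 424 to 658, 840.0 and 922 (log2 fold change 0.88), and Mmp8 as lower, from 157, 90.0 and 83.9 to 27.6, 33.1 and 33.8 (-1.86), where IRF5-NP replicates 1 and 3 were not above background. Csf3r lost its call without PBS replicate 1 (0.91) or IRF5-NP replicate 2 (0.84) or 3 (0.77), and Mmp8 without PBS replicate 1 (-1.44) or IRF5-NP replicate 1 (-1.77) or 3 (-1.91). The call of Mmp8 was also lost after background subtraction (-5.41), under positive control scaling (-2.70) and by the methods' t-test. Of the 9, 1 passed as higher (11.1%, against 2.52% of the panel) and 1 as lower (11.1%, against 7.03%). Mpo and Camp were not above background in any sample. The 7 dendritic cell markers summed to 402, 447 and 439 in the PBS samples and to 229, 186 and 247 in the IRF5-NP samples. The Itgax probe was the highest on average over the samples. Itgax passed as lower (log2 fold change -1.88), also when any 1 sample was left out, but it was not above background in IRF5-NP replicate 3, and the call was lost after background subtraction (-4.93), under positive control scaling (-2.72) and by the methods' t-test. Itgax was 1 of 7 that passed as lower (14.3%, against 7.03% of the panel). Xcr1 and Cd209e were not above background in any sample. The 8 eosinophil and mast cell markers summed to 293, 372 and 403 in the PBS samples. In the IRF5-NP samples they summed to 604, 1003 and 980, with Hdc the highest probe on average over the samples. Hdc (log2 fold change 1.86) and Cpa3 (1.80, above background in 2 samples) passed as higher, calls that both lost without PBS replicate 1 (1.52 and 1.46) or IRF5-NP replicate 3 (1.71 and 1.82), and Cpa3 also without IRF5-NP replicate 1 (1.60) or 2 (1.98). They were 2 of the 8 (25%, against 2.52% of the panel that passed as higher). Epx, Prg2 and Tpsb2 were not above background in any sample. Nkg7 and Ifng, the T and NK cell genes measured, were not above background in any sample. Ms4a1, the B cell gene measured, was at 16.3 to 25.9 in the PBS samples and at 50.5 to 75.4 in the IRF5-NP samples, and passed as higher (log2 fold change 1.49) although only IRF5-NP replicates 1 and 2 were above background. Cdh1, an epithelial gene, was at 80.9 to 97.6 in the PBS samples and at 35.2 to 40.8 in the IRF5-NP samples, where only replicate 2 was above background, and passed as lower (-1.19). Both lost their calls without PBS replicate 1 (1.76 and -1.28) or any 1 of the IRF5-NP samples (1.34 to 1.62 for Ms4a1 and -1.14 to -1.25 for Cdh1).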

How the data were processed

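RNA of 6 samples of sorted peritoneal macrophages (3 PBS, 3 IRF5-NP) was counted on a NanoString panel of 754 genes with 6 positive and 8 negative control probes. The deposited values are normalized counts (a signal on a linear scale). Per the methods, which state it for cultured macrophages, the authors scaled counts to housekeeping genes in nSolver after quality control in NanoStringQCPro. In each sample the values of all 754 genes were whole multiples of 1 factor within 0.01, so counts and totals (683472 to 1830318) were taken from them, and Poisson intervals cover counting error only. In the IRF5-NP samples the smallest gene value was 2 to 4 steps, never 1, so the size of 1 count was inferred there from the common step and was not seen directly. Scaling by few housekeeping genes can shift all genes of a sample together, so other scalings were tried.

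Groups came from the treatment label. Log2(value + 1) was fitted with limma 3.58.1 (lmFit, eBayes with a mean-variance trend, R 4.3.3), as a two-sided test, its p-values adjusted by Benjamini-Hochberg across the 754 genes and read at 0.05. PBS replicates 2 and 3 were averaged because a chi-square test found no difference beyond counting noise (1.07 per degree of freedom, against 54.0 and above for all other pairs but IRF5-NP replicates 2 and 3, at 7.07). The labels do not say whether each sample comes from a separate mouse. The fit was tested on simulated data, of which no outcome is given here. Means and SDs are of linear values. No per-sample column was left unmatched.

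The members and lists were chosen with earlier results of these data known. All members were named. From each pathway list the text names up to 8 genes past the threshold and up to 4 others, by the largest absolute log2 fold change, with Irf5 and, for Tnf and Tnfaip3, the 5 genes of the most similar profile. Promoter sequences are from RefSeq. Sequence positions count from the start site. Genes with no row among the 754 were not analysed here.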

Additional observations from a re-analysis of the deposited data

How the results depend on the processing

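Under 19 alternative settings, 7 of 815 single-gene values reversed, in 5 of the 43 genes named with a fold change other than those of similar profile alone. Nfkb1 turned to 0.13 with a common median, 0.089 with quantile normalization and 0.067 with scaling to the total. Nfkbie turned to -0.68, Ripk2 to -0.27 and Cd40lg to -0.11 under positive control scaling, and Peli1 to 0.050 with a common median. Positive control scaling moved the median log2 fold change of all genes from -0.03 to -0.88, a common median to 0.21, quantile normalization to 0.11 and total scaling to 0.14, and the cause was not tested. Tnf and Tnfaip3 kept their direction throughout, with Tnf at -4.41 after background subtraction, where values at or under background are set to a floor, and at -2.88 under positive control scaling, where Tnfaip3 was at -3.24. Leaving out samples gave -1.82 to -2.30 for Tnf and -1.51 to -2.42 for Tnfaip3.

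Nfkbia kept its direction but lost its call with the methods' t-test (-1.48, adjusted p = 0.270 by Benjamini-Hochberg and 1 by Benjamini-Yekutieli) and without a variance trend (-1.48). The call was also lost after background subtraction (-1.55), with quantile normalization (-1.18), positive control scaling (-2.35) and total scaling (-1.31). Leaving out PBS replicate 1 (-0.94) or any 1 IRF5-NP replicate (-1.42 to -1.52) lost it too. It held without PBS replicate 2 (-1.47) and without PBS replicate 3 (-1.49). These settings change the comparison little, because the 2 samples were counted as 1.

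Of 23 named genes that passed, all 23 passed with 6 separate samples, the block, array weights, a pseudocount of 10 and the filter on background. With a common median 17 passed, without Cd83, Cdh1, Cxcl2, Il1rn, Tnfrsf11a and Vegfa. With quantile normalization 17 passed, without Cd83, Cdh1, Cxcl2, Il1rn, Nfkbia and Vegfa. With total scaling 16 passed, without Cdh1, Il1rn, Mertk, Nfkbia, Plau, Tnfrsf11a and Vegfa. With no variance trend 13 passed, without Cd83, Csf3r, Cxcl2, Hdc, Il1rn, Mertk, Nfkbia, Selp, Tnfrsf11a and Vegfa. After background subtraction 5 passed (Ccl2, Ccl4, Chil3, Plau and Vegfa), under positive control scaling 4 (Ccl2, Ccl4, Chil3 and Cxcl9), and by the methods' t-test 0.

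The panel gave 72 changed genes (19 higher, 53 lower). This became 121 (37 and 84) with 6 separate samples, 125 (42 and 83) with array weights and 41 (8 and 33) without a variance trend. It was 27 (5 and 22) after background subtraction and 14 (0 and 14) under positive control scaling. By the methods' t-test, with PBS replicates 2 and 3 counted as 1, it was 0 (0 and 0) with either adjustment. There 125 genes had an unadjusted p under 0.05, against 191 in limma. The t-test was not run on 6 separate samples. The split of higher against lower was 42 and 36 with a common median, 35 and 40 with quantile normalization and 32 and 34 with total scaling. Leaving out samples gave 21 to 83 changed genes, 2 to 24 higher and 19 to 59 lower. The 10 target genes that were lower became 18 with array weights, 6 with a common median or total scaling, 5 without a variance trend, after background subtraction or with quantile normalization, 3 under positive control scaling, 0 by the t-test, and 3 to 10 when samples were left out. Without PBS replicate 1 the PBS group holds 1 sample, assumed to vary like the others.

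With the replicate number as a block and 6 separate samples, 135 genes passed (52 higher, 83 lower). Samples of the same number deviated together by correlations of 0.158, 0.178 and 0.0953 over 482 genes, and PBS replicate 3 correlated better with IRF5-NP replicate 2 (0.144), so the numbers were not taken as pairs. The count test on recovered counts was not run. Precision is limited by few samples and by 124 genes under background in all of them.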
